A study of Mus musculus with 7 samples.

Results

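The immunoglobulin genes were read on 20 of the 35556 probe sets of the array. A probe set was taken when every gene symbol in its annotation began with Ighv, Igkv or Iglv, or was Ighm, Ighd, Igha, Ighe or Jchain. All such probe sets were kept, 15 with 1 symbol and 5 with several. They fell into 12 probe sets of kappa variable segments, 7 of the heavy chain (Ighm, Igha, Ighv3-6 and Ighv1-33) and 1 for the J chain, and together named 19 different genes. Symbols of Ighd, Ighe or a lambda variable segment were on 0 probe sets that met the rule. The mouse RefSeq gene table holds 353 genes that would match the same symbols, so these probe sets covered a small share of the repertoire.

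The study compared hematopoietic stem cells (HSCs; LSK, CD150+, CD48-), sorted from bone marrow, of Cebpa flox/flox mice (Cebpa fl/fl, 3 arrays) and Cebpa flox/flox;Mx1Cre mice (Cebpa Δ/Δ, 4 arrays). Cebpa encodes C/EBPα, a transcription factor needed for granulocyte development, and the question behind the arrays was which transcripts differ in HSCs after its deletion. All mice were female, on a C57BL/6 background after at least 10 generations of backcrossing, and 10 to 12 weeks old at treatment. Both genotypes carried the loxP-flanked Cebpa alleles, both were given pIpC, which induces interferon, in 3 injections, marrow was taken at day 18, and the methods describe ciprofloxacin in the drinking water afterwards. Mx1Cre is driven by an interferon-inducible promoter, so deletion was not restricted to HSCs or even to blood cells, and the control mice carried no Cre. The sort followed enrichment on anti-c-Kit beads and used antibodies to B220, a B cell antigen, and to CD3, CD11b, Gr1 and Ter119 against other mature cells.

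An antibody is built from heavy and light chains, each with a variable (V) part that binds antigen and a constant part. The V part is assembled by joining V, (D) and J gene segments in lymphocyte precursors, and a B cell normally keeps 1 productive heavy and 1 productive light chain rearrangement, so that a clone uses a single kappa V segment. Plasma cells transcribe the assembled genes at very high levels, and the J chain links IgM and IgA into multimers. V segments that have not been joined can still give germline transcripts, and the probe sets do not tell these from the transcripts of assembled genes.

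HSC markers were well measured on every array. All 13 measured HSC genes of 15 listed had a mean above 5.58, the median log2 level of all probe sets, among them Kit, Hlf, Meis1 and Pdzk1ip1, and their mean log2 level per array lay between 7.88 and 8.69. Array medians lay between 46.2 and 50.4 in intensity units, and the mean correlation of an array with the others was lowest in fl/fl 1 (0.957) and Δ/Δ 3 (0.960) and at most 0.968. Cebpa itself measured 5.54, 5.75 and 5.63 in the Cebpa fl/fl arrays and 5.11, 5.24, 5.27 and 5.27 in the Cebpa Δ/Δ arrays on the log2 scale, a difference of -0.41 (SE 0.07). Values are given throughout as log2 intensities in the order fl/fl 1 to 3 and Δ/Δ 1 to 4, and differences as the Cebpa Δ/Δ mean minus the Cebpa fl/fl mean with the standard error (SE) of the limma fit.

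In most of the immunoglobulin probe sets the genotypes lay close together at a low level. Their median log2 difference was 0.04 against -0.01 over all probe sets, 14 lay above 0 and 6 below, and 19 of 20 differed by less than 1.5-fold. The exception was the kappa segment Igkv10-96, at -4.33 (SE 1.72), which was high on fl/fl 1 and fl/fl 2 alone. The highest difference was that of the probe set annotated to Igha and Ighv1-33, at 0.46 (SE 0.33). A mean below the median level of all probe sets was found for 18 of 20, and 9 lay below 4.15, the percentile 25 of those levels. Probe sets differ in affinity, so these levels describe how dim a probe set was and do not rank the genes. In bulk samples of this kind, fewer cells of a type and less RNA per cell cannot be told apart.

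The study states thresholds of p under 0.05 and more than 1.5-fold, which were applied here to the unadjusted limma p. With them, 0 of the 20 were higher and 1 (Igkv10-96) was lower in Cebpa Δ/Δ HSCs, beside 1.32% and 1.4% of all probe sets (2.72% in either direction). The group was chosen by its values in this same contrast on these arrays, so these counts describe it and nothing is read from them. After Benjamini-Hochberg adjustment in limma 0 of the 20 passed, beside 0% of all probe sets. At an unadjusted p under 0.05, limma gave 1 of the 20 and 6.42% of all probe sets. The arrays of the 2 genotypes did not overlap in 0 of the 20, beside 5.59% of all probe sets, which were higher in 2.95% and lower in 2.64%.

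**Figure D1:**
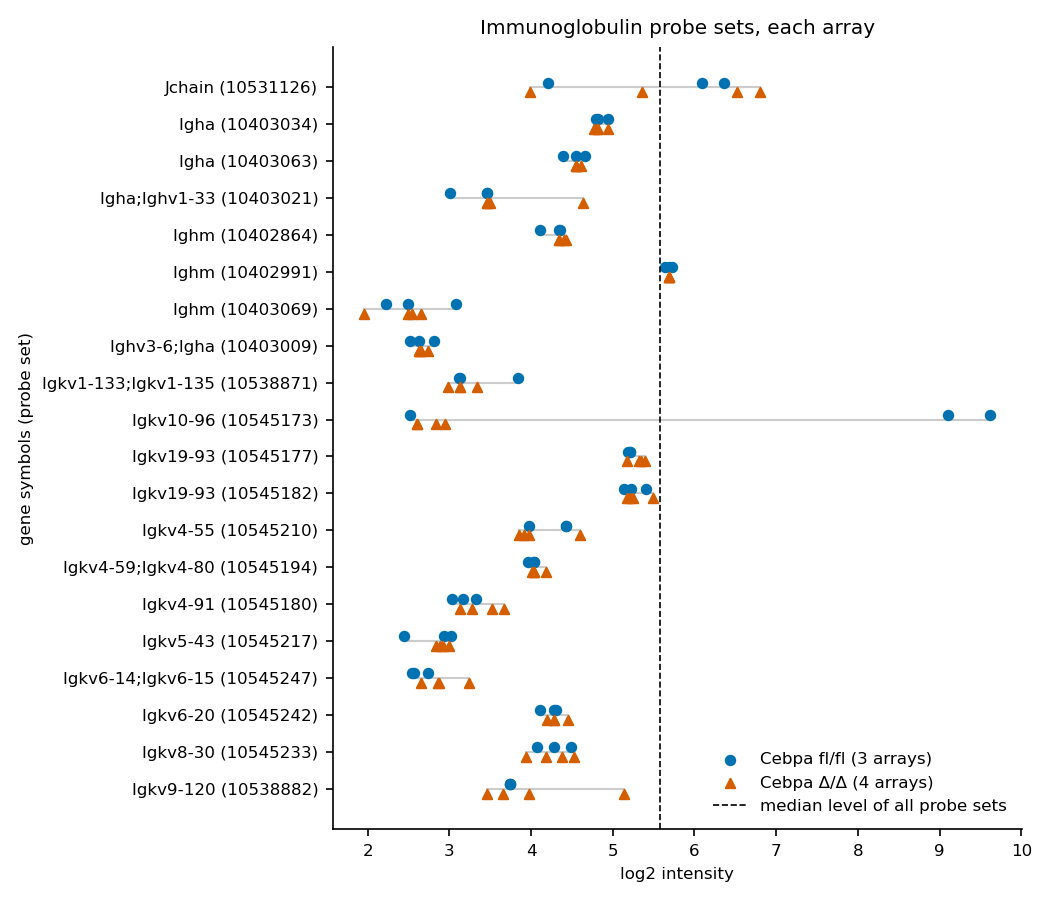
Log2 intensity (horizontal axis) of the 20 immunoglobulin probe sets (rows, with gene symbols and probe set number) on each of 3 Cebpa fl/fl arrays (blue circles) and 4 Cebpa Δ/Δ arrays (orange triangles); grey lines span all 7 arrays and the dashed line is the median level of all probe sets, 5.58. Most rows are narrow and lie left of the dashed line, while Igkv10-96 reaches 9.10 and 9.62 on 2 circles and Jchain spreads over both genotypes.

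The arrays of both genotypes overlapped in every probe set of the heavy chain constant genes. Ighm encodes the constant region of IgM, the first class a B cell makes, and was read on 3 probe sets. The brightest, 10402991, measured 5.72, 5.69 and 5.64 in Cebpa fl/fl and 5.69 on each of the 4 Cebpa Δ/Δ arrays, a difference of 0.00 (SE 0.04). The second, 10402864, measured 4.36, 4.34 and 4.11 against 4.34, 4.34, 4.43 and 4.40, a difference of 0.11 (SE 0.08). In the second fl/fl 3 was low, and its genotypes no longer overlapped, at 0.15, once array medians were subtracted. The dimmest, 10403069, measured 2.23, 2.49 and 3.08 against 2.54, 1.96, 2.66 and 2.49, a difference of -0.19 (SE 0.25), with fl/fl 3 the highest here. Thus fl/fl 3 was the lowest array on both brighter Ighm probe sets and the highest on the dimmest, and the 3 did not move together.

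Igha encodes the constant region of IgA, the class of mucosal antibodies. On probe set 10403034 it measured 4.81, 4.79 and 4.95 in Cebpa fl/fl and 4.77, 4.80, 4.95 and 4.81 in Cebpa Δ/Δ HSCs, a difference of -0.02 (SE 0.07). On probe set 10403063 it measured 4.66, 4.39 and 4.55 against 4.55, 4.55, 4.61 and 4.55, a difference of 0.03 (SE 0.07). They spanned 0.17 and 0.27 over the 7 arrays. The probe set that Igha shares with the V segment Ighv3-6 was as flat, from 2.52 to 2.81 on all arrays (0.01, SE 0.08).

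The remaining heavy chain probe set, 10403021, is annotated to Igha and to Ighv1-33, a V segment pseudogene in RefSeq. It measured 3.00, 3.46 and 3.46 in Cebpa fl/fl and 3.46, 3.46, 4.64 and 3.50 in Cebpa Δ/Δ HSCs. Only Δ/Δ 3 stood out, and without it the difference of 0.46 became 0.16. The 4.64 stood at percentile 33.4 within Δ/Δ 3, below the median level of all probe sets. With array medians subtracted the difference was 0.50 and the arrays did not overlap. Before that step fl/fl 2, fl/fl 3, Δ/Δ 1 and Δ/Δ 2 held an equal value (3.46), so the small differences between array medians separated them. Neither of the probe sets of Igha alone rose by as much on Δ/Δ 3, where they read 4.95 and 4.61. On probe sets 10403015 and 10403018, annotated to Ighg3 and Ighv1-26 besides these genes, Δ/Δ 3 was not the highest array. The highest were Δ/Δ 2 on the former (5.66, against 5.24 on Δ/Δ 3) and fl/fl 1 on the latter (6.00, against 5.44 on Δ/Δ 3). Δ/Δ 3 also had the lowest level of HSC genes, with a mean log2 deviation of -0.59 over the 13 genes where the other arrays lay between -0.29 and 0.23. The part of that array's makeup in the 4.64 of probe set 10403021 was not tested.

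The kappa V segments contained the 1 large value of the group. Igkv10-96 measured 9.10 and 9.62 on fl/fl 1 and fl/fl 2, but 2.52 on fl/fl 3. On the Cebpa Δ/Δ arrays it measured 2.84, 2.60, 2.61 and 2.94. Within each array the probe set stood at percentile 92.9 and 95.1 of all probe sets on fl/fl 1 and fl/fl 2, at 6.86 on fl/fl 3 and between 7.78 and 10.7 on the 4 Cebpa Δ/Δ arrays. Because fl/fl 3 was the lowest array of all 7, the genotypes overlapped, and the segment divided the Cebpa fl/fl mice rather than the genotypes.

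No other probe set on the array had a larger SD within Cebpa fl/fl than Igkv10-96, at 3.96 (n = 3), whereas its SD within Cebpa Δ/Δ was 0.17 (n = 4). Its range over the 7 arrays, 7.10, ranked 3 among all 35556. To find probe sets with the same pattern, those whose values on fl/fl 1 and fl/fl 2 both exceeded each of the other 5 arrays were listed. A gap over 2 was found for 3 probe sets. These were Igkv10-96 with a gap of 6.15, 1 unnamed probe set with 2.20 and Ifitm6, a member of the interferon-induced transmembrane family, with 2.02. With a gap over 1 there were 29. The 3 values of Igkv10-96 in Cebpa fl/fl are single mice. Their labels differ in 1 detail, the spelling of the time after treatment, which is "days" for fl/fl 1 and fl/fl 2 and "day" for fl/fl 3 and all Cebpa Δ/Δ arrays. What lies behind that wording is not given, and its relation to the values was not tested.

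The call of Igkv10-96 as lower rested on which arrays were present. It passed the thresholds of the study with all 7 arrays, and among the fits without 1 array only in that without fl/fl 3, where the difference was -6.61. There it also passed the adjusted threshold. Without fl/fl 1, without fl/fl 2, or without any 1 of the 4 Cebpa Δ/Δ arrays it no longer passed, at differences from -4.40 to -3.06. Neutrophil genes were all lower in Cebpa Δ/Δ HSCs, and their mean, though not every gene, had the same order among the Cebpa fl/fl arrays. Among these arrays Chil3 (9.46, 8.88 and 7.21) and Ly6g (5.99, 5.91 and 4.58) were highest on fl/fl 1. Mmp8 (3.49, 5.01 and 4.09) was lowest there. The mean log2 deviation of the 10 listed, among them S100a8, S100a9, Ngp and Lcn2, was 2.34 and 2.81 on fl/fl 1 and fl/fl 2 and 1.14 on fl/fl 3, and lay between -2.01 and -0.94 on the Cebpa Δ/Δ arrays. Whether cells carried along with these genes had a part in the Igkv10-96 values was not tested.

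**Figure D2:**
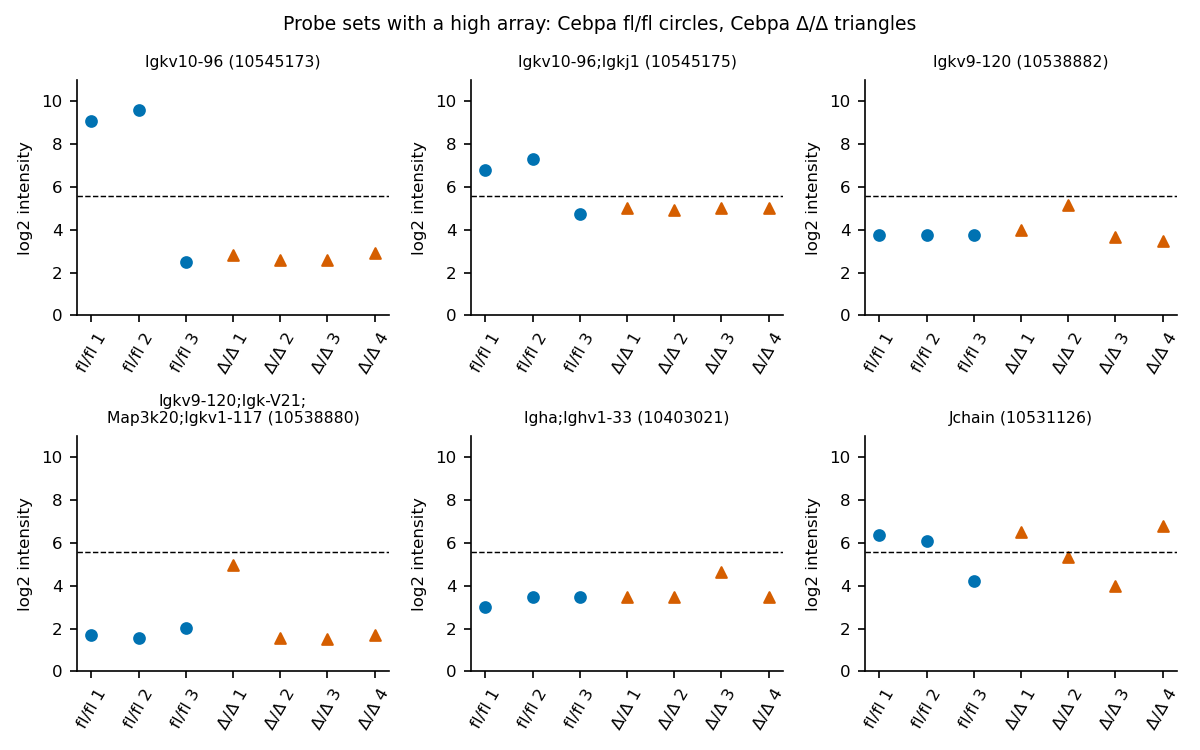
Log2 intensity (vertical axis, 0 to 11) on each of the 7 arrays (horizontal axis) for 6 probe sets with at least 1 high array; circles are Cebpa fl/fl, triangles Cebpa Δ/Δ and the dashed line is the median level of all probe sets. Igkv10-96 and the probe set it shares with Igkj1 are high on fl/fl 1 and fl/fl 2, Igkv9-120 on Δ/Δ 2 (5.14), the set it shares with Igkv1-117 on Δ/Δ 1 (4.97), and Igha;Ighv1-33 on Δ/Δ 3 (4.64). High is meant against the other arrays of a probe set: the 5.14, 4.97 and 4.64 lie below the dashed line.

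Igkv9-120 had a single array that was high against its others. It measured 3.74 on each Cebpa fl/fl array and 3.97, 5.14, 3.65 and 3.46 in Cebpa Δ/Δ HSCs. The 5.14 stood at percentile 43.6 within Δ/Δ 2, below the median level of all probe sets. The difference of 0.32 (SE 0.40) came from Δ/Δ 2, and without that array it was -0.05. Mzb1, a chaperone of the IgM heavy chain in plasma and marginal zone B cells, was likewise highest on Δ/Δ 2 (6.52, against 5.22 to 5.54 on the other 6 arrays). Of the 18 plasma cell genes listed, however, only 2 had their highest value on Δ/Δ 2, beside 5 on Δ/Δ 4 and 4 on fl/fl 2. Whether the same cells gave the Igkv9-120 and Mzb1 values was not tested.

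The other 10 kappa V probe sets were flat or dim. Those of Igkv19-93 were the brightest of them, and measured 5.18 to 5.40 on probe set 10545177 (difference 0.11, SE 0.06) and 5.14 to 5.49 on probe set 10545182 (0.03, SE 0.10). Differences of the dimmer ones were those of Igkv6-14;Igkv6-15 (0.29, SE 0.14), Igkv4-91 (0.22, SE 0.15), Igkv5-43 (0.12, SE 0.15) and Igkv8-30 (-0.03, SE 0.17). All 4 lay below the median level on every array. Igkv1-133;Igkv1-135 measured 3.85, 3.14 and 3.12 against 2.98, 3.13, 3.14 and 3.34, so that fl/fl 1 alone gave its difference of -0.22 (SE 0.20). Igkv4-55 measured 4.43, 4.43 and 3.97 against 3.85, 3.92, 4.60 and 3.98 (-0.19, SE 0.22). It too was higher on fl/fl 1 and fl/fl 2 than on fl/fl 3, but its highest value was that of Δ/Δ 3. Igkv6-20 and Igkv4-59;Igkv4-80 spanned 0.35 and 0.22 over the arrays.

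Among the kappa V members, the segments with a high array, Igkv9-120 and Igkv10-96, were not adjacent in gene order. In the RefSeq order of 162 kappa V genes (assembly GRCm38.p6), counted from the end of the locus at which Igkv1-135 is the gene 3, Igkv9-120 is 20 and Igkv10-96 is 48. The flat Igkv19-93 and Igkv4-91 are close to the latter, at 54 and 56. The probe sets farther along, from Igkv4-80 at 69 to Igkv6-14 at 148, spanned at most 0.75 over the 7 arrays. Sets outside the rule, such as 10538880, which names Igkv9-120 and Igkv1-117, are not placed here. With 12 kappa V probe sets for 162 genes, most of the locus was not read.

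The J chain was the most variable member after Igkv10-96, and in both genotypes. Jchain, whose product joins IgM or IgA monomers, measured 6.36, 6.10 and 4.20 in Cebpa fl/fl and 6.52, 5.36, 3.98 and 6.80 in Cebpa Δ/Δ HSCs. The arrays did not sort by genotype: fl/fl 3 and Δ/Δ 3 were low, Δ/Δ 2 was intermediate and the other 4 lay above the median level of all probe sets. The means were 5.55 ± 1.18 (SD, n = 3) and 5.67 ± 1.28 (SD, n = 4), a difference of 0.11 (SE 0.85). Among all probe sets its SD stood at percentile 96.9 within Cebpa fl/fl and at 98.1 within Cebpa Δ/Δ. With 1 array left out the difference ran from -0.56 without fl/fl 3 to 0.67 without Δ/Δ 3. It was also below 0 without Δ/Δ 1 (-0.17) or Δ/Δ 4 (-0.27), so its sign was not settled.

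Jchain and Igkv10-96 shared their high arrays only in part. Both were high on fl/fl 1 and fl/fl 2 and low on fl/fl 3, but Jchain was as high on Δ/Δ 1 and Δ/Δ 4, where Igkv10-96 read 2.84 and 2.94. The Ighm and Igha probe sets did not follow either gene: the widest range among those of Ighm or Igha alone was 1.12, in the dimmest Ighm probe set.

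Taking the genes as groups gave the same picture. For each array a score was formed as the mean over members of the log2 value minus that probe set's mean over the 7 arrays. The score of all 20 was 0.24, 0.23 and -0.20 on fl/fl 1 to 3 and -0.05, -0.12, -0.06 and -0.03 on Δ/Δ 1 to 4. Without Igkv10-96 it was 0.01, -0.02 and -0.10 against 0.04, -0.02, 0.04 and 0.05. The high score of fl/fl 1 and fl/fl 2 was therefore that of a single V segment. In the heavy chain group the highest score was that of Δ/Δ 3, at 0.22, and the others lay between -0.10 and 0.04.

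**Figure D3:**
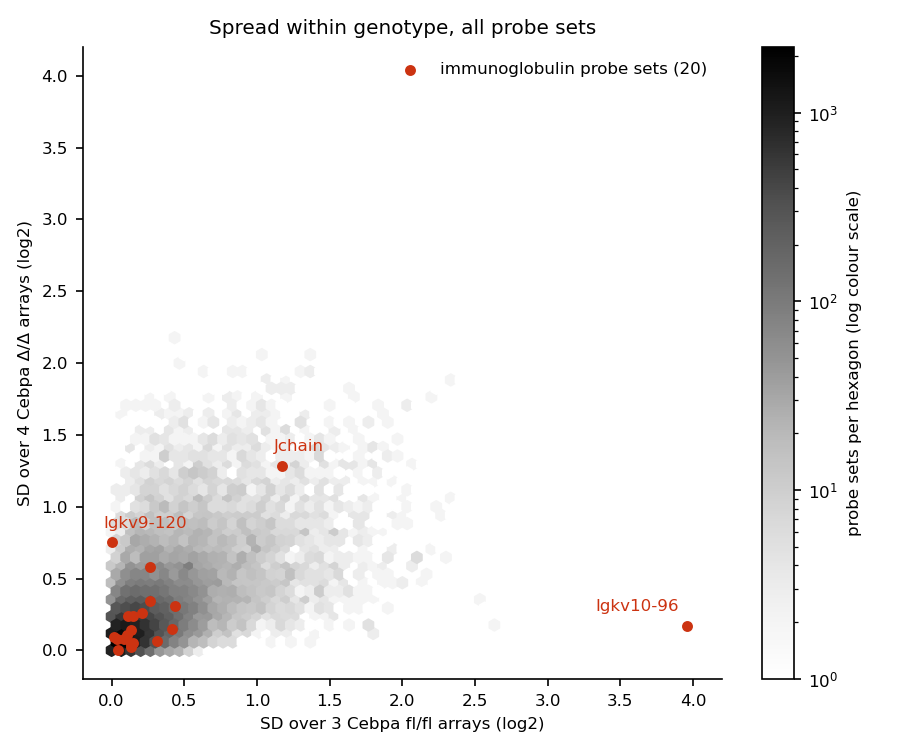
SD of the log2 values over 3 Cebpa fl/fl arrays (horizontal axis) against the SD over 4 Cebpa Δ/Δ arrays (vertical axis) for all 35556 probe sets (grey hexagons, darker for more probe sets on a log colour scale) and the 20 immunoglobulin probe sets (red points). Igkv10-96 stands alone at 3.96 on the horizontal axis, Jchain is spread in both genotypes (1.18 and 1.28) and most of the others lie near the origin.

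Most of the group varied little within a genotype, but by the median SD no less than annotated probe sets. The median SD of the 20 was 0.14 within each genotype, beside 0.17 (Cebpa fl/fl) and 0.16 (Cebpa Δ/Δ) for all probe sets. For probe sets with a gene annotation it was lower, at 0.13 within each genotype. The median range over the arrays was 0.58 for the 20, 0.56 for all and 0.47 for annotated probe sets. A range over 1 was seen in 5 of the 20 (25%), Igkv10-96 and Jchain among them, beside 25.8% of all probe sets and 13.1% of those with a gene annotation. In 2 of the 20, Igkv9-120 and Igha;Ighv1-33, the highest array exceeded the next by more than 1, which was 10% beside 3.38% of all and 0.752% of annotated probe sets. Equal values on 2 or more arrays, as for Ighm on the Cebpa Δ/Δ arrays, occurred in 12 of the 20 and in 51.4% of all probe sets, so very small SDs partly reflect ties in the deposited values.

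A further 12 probe sets carried an immunoglobulin symbol beside one that the rule did not admit, and give a second reading of some segments. The probe set of Igkv10-96 and the joining segment Igkj1 measured 6.79, 7.30 and 4.76 in Cebpa fl/fl and 5.04, 4.91, 5.04 and 5.04 in Cebpa Δ/Δ HSCs. As for Igkv10-96 alone, fl/fl 1 and fl/fl 2 were high and fl/fl 3 was lowest. All 4 annotated transcripts of the Igkv10-96 probe set are among the 9 of this one, so the pair may read the same transcripts and is not independent evidence.

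Igkv9-120 is also annotated, with Igkv1-117 and other symbols, to probe sets 10538880 and 10538921, but these share 0 transcripts with the probe set described above. The former measured 1.69, 1.58 and 2.01 against 4.97, 1.57, 1.53 and 1.69, and the latter 3.81, 3.56 and 3.96 against 4.83, 4.29, 4.42 and 3.90. Here Δ/Δ 1 was the high array in both, not Δ/Δ 2. The lambda light chain (Iglv1, Iglc1 and Iglv2) measured 4.86, 4.90 and 4.85 against 5.10, 5.07, 5.26 and 5.30 on probe set 10438405. This difference of 0.31 did not reach 1.5-fold, although the arrays did not overlap. The second lambda probe set overlapped, at 0.13, and the IgG3 constant gene Ighg3 lay between 2.27 and 2.46. The 4 sets that include the kappa constant gene Igkc differed by -0.09 to 0.05.

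Genes that accompany immunoglobulin expression were read from 4 lists, of the B cell receptor, B lineage factors, recombination and plasma cells. Of 13 measured B cell receptor and surface genes 0 passed the thresholds of the study in either direction, beside 1.53% (higher) and 0.577% (lower) of the 19938 named genes with 1 probe set each, and their median difference was -0.02. By the unadjusted limma p alone 2 of them were under 0.05, and 0 passed after adjustment, as for all named genes, of which 6.54% had an unadjusted p under 0.05. The probe sets of 8 of the 13 lay below the median level on all 7 arrays. Among these, Ms4a1 (CD20) measured 2.83 to 3.57. Cd24a, a surface antigen of early B cells and other progenitors, was bright in both genotypes and differed by 0.39 (SE 0.15; limma adjusted p = 0.760). Cd79a, a signalling subunit of the B cell receptor, measured 3.46, 5.20 and 4.04 against 4.74, 4.60, 5.35 and 3.84, highest on Δ/Δ 3 and fl/fl 2. Its partner Cd79b was brighter, at 7.59 ± 0.24 (SD, n = 3) and 7.22 ± 0.38 (SD, n = 4). Blnk, an adaptor below the receptor, differed by 0.55 (SE 0.13; limma adjusted p = 0.608) and passed the thresholds of the study without fl/fl 1 (0.60) or Δ/Δ 1 (0.62).

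Among 14 B lineage factors and pre-B receptor genes, 2 rose and 0 fell at the thresholds of the study, with a median difference of 0.22. Il7r, the receptor chain for the lymphoid growth factor IL-7, measured 3.74, 3.56 and 2.91 in Cebpa fl/fl and 5.07, 5.39, 5.64 and 4.90 in Cebpa Δ/Δ HSCs (1.85, SE 0.26; limma adjusted p = 0.400). Spib, an Ets factor of B cells and plasmacytoid dendritic cells, measured 4.81, 4.09 and 4.15 against 5.06, 5.11, 5.38 and 6.00 (1.03, SE 0.29; limma adjusted p = 0.713). Every Cebpa Δ/Δ array was above every Cebpa fl/fl array in both genes. Pax5, which fixes B cell identity, measured 5.29 to 5.57 and Ebf1, its upstream partner, 3.77 to 4.15, and neither passed the thresholds. The pre-B receptor genes Vpreb1 (0.14, SE 0.22) and Vpreb3 (0.31, SE 0.26) did not pass either, nor did the factors Tcf3 (0.25, SE 0.13) and Foxo1 (0.36, SE 0.18).

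Of the 13 measured V(D)J recombination genes, 1 rose at the thresholds of the study and 0 fell, with a median difference of 0.04. This was Dntt, the polymerase that extends the ends being joined, which measured 3.70, 4.06 and 3.41 in Cebpa fl/fl against 7.60, 7.75, 7.95 and 6.44 in Cebpa Δ/Δ HSCs (3.71, SE 0.39; limma adjusted p = 0.259). The recombinase genes themselves were dim. Rag1 measured 4.16 to 4.57 in Cebpa fl/fl and 4.53 to 4.87 in Cebpa Δ/Δ HSCs (0.36, SE 0.13; limma adjusted p = 0.760), and Rag2 lay between 2.61 and 3.81 on all arrays. The bright Hmgb2 differed by 0.38 (SE 0.14; limma adjusted p = 0.760). With Dntt and Rag1 it made 3 of the 13 with an unadjusted limma p under 0.05, beside 6.54% of all named genes. Dntt was high on all 4 Cebpa Δ/Δ arrays, whereas the highest value of Igkv9-120 was on 1 of them (Δ/Δ 2) and that of Igha;Ighv1-33 on another (Δ/Δ 3). Both of these values were below the median level of all probe sets.

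Plasma cell genes gave 1 higher and 0 lower of 18, with a median difference of 0.05, and 2 with an unadjusted limma p under 0.05. Ell2, an elongation factor known from plasma cells, measured 6.92, 7.16 and 7.52 against 7.95 to 8.20 on the 4 Cebpa Δ/Δ arrays (0.84, SE 0.15; limma adjusted p = 0.440). The second of these, the surface receptor Slamf7, measured 3.48, 3.71 and 3.73 against 4.00, 4.11, 4.64 and 3.97 (0.54, SE 0.18; limma adjusted p = 0.760) and missed the fold threshold, although the arrays did not overlap. Of other plasma cell markers, Sdc1 (CD138) measured 5.11 to 5.63, Prdm1 3.90 to 4.36 and Tnfrsf17, the receptor BCMA, 4.48 to 4.81, with overlapping arrays. On Δ/Δ 4, the array with the highest Jchain, 5 of the 18 had their highest value, among them the plasma cell factors Irf4 (4.93) and Xbp1 (8.96), and 5 had their lowest, among them Mzb1 (5.22) and Ssr4 (8.93). The part of plasma cells in the Jchain values was not tested.

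**Figure D4:**
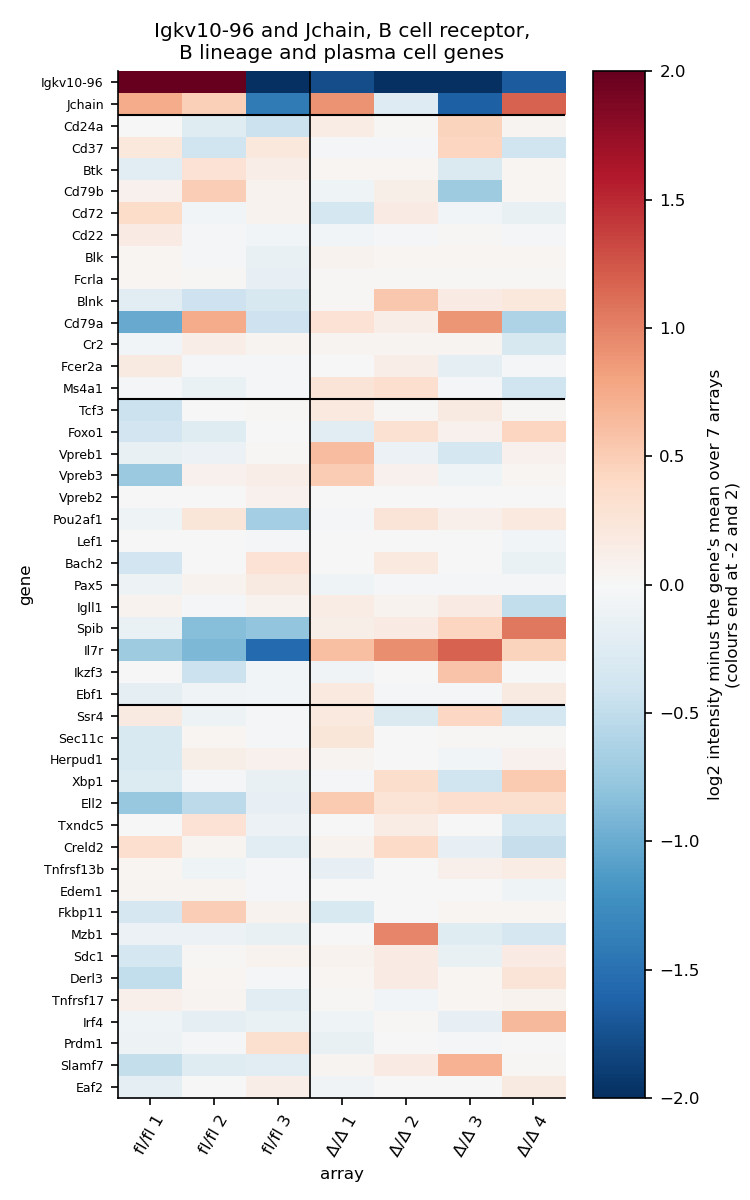
Log2 intensity minus the gene's own mean over 7 arrays (colour, red above and blue below the mean, ending at -2 and 2) for Igkv10-96, Jchain and the genes of the B cell receptor, B lineage and plasma cell lists (rows, each list in order of its mean level) on each array (columns; the vertical line parts Cebpa fl/fl from Cebpa Δ/Δ). Most genes of the lists stay pale on every array, Il7r, Spib and Ell2 are red in Cebpa Δ/Δ, Igkv10-96 is red on fl/fl 1 and fl/fl 2 only, and Jchain is red on 4 arrays of both genotypes.

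Genes of other mature cells differed between genotypes on the same arrays. All 10 neutrophil genes were lower (median difference -4.27) and all 7 measured erythroid genes higher (2.20) at the thresholds of the study. Macrophage genes gave 3 higher of 9, and T and NK cell genes 3 higher of 11, with 0 lower in each. Over all named genes 1.53% were higher and 0.577% lower. Of the antigens that the sort was to exclude, Cd48 was higher by 2.75 (SE 0.59) and Ly6g lower, at -1.84 (SE 0.35). Cd3e differed by 0.30 (SE 0.12), with arrays that did not overlap, and Itgam (CD11b) by 0.16 (SE 0.15). Ptprc, the gene of which B220 is an isoform, measured 9.28 ± 0.13 (SD, n = 3) and 9.25 ± 0.08 (SD, n = 4). Its probe set does not tell B220 from other isoforms of the gene. The 7 heavy chain probe sets differed by -0.19 to 0.46, but 6 of them lay below the median level of all probe sets. Among the 12 kappa V probe sets the lowest difference was -4.33, which came from part of the Cebpa fl/fl arrays. The heavy chain range therefore does not stand for the whole immunoglobulin group. The part of these other cells in the immunoglobulin values was not tested.

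Sequence was available for the promoter of 1 member, Jchain, and for 0 of the V segments. The octamer ATGCAAAT, the element shared by immunoglobulin promoters, and the heptamer CTCATGA that accompanies it in heavy chain promoters were searched on both strands in RefSeq windows of 300 bases around transcript starts (GRCm38.p6). The Jchain window held 0 of either. Of 32851 such windows of all genes, 1.74% held the octamer and 2.67% the heptamer.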

How the data were processed

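RNA of sorted HSCs was amplified (NuGEN Ovation Pico) and read on the Affymetrix Mouse Gene 1.0 ST array, 1 per mouse by the series' design. The deposited intensity values were computed by the authors with the Robust Multichip Average (RMA) in Partek Genomics Suite 6.5, and affy is named with RMA in the submitters' processing notes. RMA equalises the distribution between arrays, so a shift shared by all genes cannot be seen, and its summary leaves many equal values. The values were linear, from 1.51 to 9840, and log2 was taken without a pseudocount, although log2 values had been assumed in the plan. There is no detection call, and the number of arrays limits the precision. 0 columns of samples were left unused.

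The annotation table named 1 gene for 21789 probe sets, several for 1621 and none for 12146. Updating symbols through Entrez numbers (RefSeq, GRCm38.p6) left the same 20 members. In R 4.3.3, limma 3.58.1 (lmFit, eBayes) fitted genotype alone to all 35556 probe sets, the difference being Cebpa Δ/Δ minus Cebpa fl/fl, and p-values were adjusted by Benjamini-Hochberg at 0.05. The fit was tested on simulated data. For gene lists the brightest probe set of each of 19938 genes was used. Which test stood behind the thresholds of the study is not given in the sources used here. The series' design counts 3 and 4 mice, whereas the extraction protocol speaks of triplicates per genotype; no other source says how replicates were obtained.

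The members and the lists were chosen with earlier results of these data known. Genes were named from all constant region and J chain members, the 8 brightest, the 8 highest and 8 lowest differences, the 5 largest SDs within each genotype, and 4 by level and 4 by p from each list; others, such as Cd79a, Pax5, Sdc1, Irf4, Mzb1, Rag2, Ms4a1, Prdm1, Tnfrsf17, Igkv6-20 and Igkv4-59;Igkv4-80, were named after their values were seen. Alternatives were each array left out, array medians subtracted, cyclic loess, a floor, array weights, a replicate block and restricted probe sets. V segment sequences were not analysed here.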

Additional observations from a re-analysis of the deposited data

Results flagged for a closer look

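In each of 60 probe sets or scores the 4 Cebpa Δ/Δ arrays were searched for 1 array far from the other 3, by Dixon's criterion at 95%. Chance flags about 1 in 20 groups, and 14 were found, many of them because the other 3 arrays held nearly equal values. The widest gaps were in the probe set of Igkv9-120, Igk-V21, Map3k20 and Igkv1-117 (10538880), at 4.97 on Δ/Δ 1 against 1.53 to 1.69 on the others, and in Igha;Ighv1-33 (10403021), at 4.64 on Δ/Δ 3 against 3.46 to 3.50. Δ/Δ 3 was the array apart in 8 cases: besides Igha;Ighv1-33 it was highest in Igkv4-55 (4.60), Igha on 10403063 (4.61), Igkv4-59;Igkv4-80 (4.19), 1 of the Igkc sets (10545198, 4.41) and Nhej1, an end-joining factor (6.98), and lowest in Ighg3 (2.43) and Btk (7.65). Δ/Δ 2 was lowest in Igkv10-96;Igkj1 (4.91) and in another Igkc set (10545187, 3.53). Δ/Δ 1 was highest in Blk, a B cell kinase (4.91), Sec11c, a signal peptidase subunit (9.27), and Hmgb2, which assists the recombinase (11.22). The criterion was applied to the 4 Cebpa Δ/Δ arrays only, so Igkv10-96 on fl/fl 3 was not examined by it.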

How the results depend on the processing

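The count of 1 immunoglobulin probe set lower in Cebpa Δ/Δ HSCs was 0 to 1 with each array left out. It was 0 with values raised to the percentile 25, with array weights, without fl/fl 1 and Δ/Δ 3 together (the arrays that correlated least), and with the replicate block. Among members above the median level it was also 0, but that restriction removes Igkv10-96 (mean 4.60), so it says nothing about the call. The labels do not say whether replicate numbers pair the samples. Deviations of same-numbered arrays correlated at -0.03, 0.10 and -0.08, and those of other-numbered arrays at -0.10 to 0.18, which cannot decide it. Δ/Δ 4 has no same-numbered partner, so the block gave the differences of the fit without Δ/Δ 4. The block is therefore no guide to the size of an effect. With 1 array left out, 0 to 1 probe sets passed the adjusted threshold and 0 to 2 did not overlap. The latter count was 2 with array medians subtracted (Ighm on 10402864 and Igha;Ighv1-33) and 1 without the 2 least correlated arrays. In both the Ighm and the Igha;Ighv1-33 probe set, arrays of both genotypes held equal values before the subtraction. Scores of the Cebpa Δ/Δ arrays 1 to 4 with 1 array left out ran from -0.087 to -0.014, -0.15 to -0.076, -0.095 to -0.022 and -0.065 to 0.0080. The score of Δ/Δ 2 was -0.048 with array medians subtracted and -0.065 with the floor. Without Igkv10-96, an alternative chosen after seeing the data, scores were -0.025 on fl/fl 2 and 0.037, -0.016, 0.041 and 0.054 on Δ/Δ 1 to 4. In alternatives also chosen after seeing the data, higher B cell receptor genes numbered 0 to 1 with 1 array left out and 1 with array medians subtracted (Blnk), and higher plasma cell genes 1 to 2 with 1 array left out and 2 with the replicate block (Ell2 and Slamf7). The causes were not tested. The other 245 recomputed summaries stayed within 1.5 times (counts) or within 1 SD of the replicates (other values), as did 195 of 198 differences of named members. That margin is wide where arrays vary, as for Jchain, whose difference changed sign, Igkv9-120 (-0.05 to 0.51) and Igkv10-96 (-6.61 to -3.06), each with 1 array left out. The block changed no other call. With 3 and 4 arrays and probe sets this dim, a small change in a rare transcript would not be seen.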

Other observations

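The T cell receptor genes, which are joined by the same recombinase, were read on 52 probe sets annotated to variable segments alone. At the thresholds of the study 0 of them were higher and 0 lower, beside 1.32% and 1.4% of all probe sets. At an unadjusted limma p under 0.05 there were 0, beside 6.42%, and their median difference was 0.04. Some of the 52 held identical values on all 7 arrays, such as 10414790 and 10414900, so they are fewer than 52 separate readings. Some gamma segments had arrays high against their others in Cebpa Δ/Δ HSCs, at values below 5.58, the median level of all probe sets. The probe set of Trgv2;Trgv6;Trgv4 (10407940) measured 3.06, 3.52 and 3.04 in Cebpa fl/fl and 3.48, 5.20, 4.85 and 3.46 in Cebpa Δ/Δ HSCs, and Trgv1 (10403825) measured 3.30, 3.31 and 2.72 against 4.06, 3.68, 5.32 and 3.51. The high arrays were Δ/Δ 2 and Δ/Δ 3 in the former and Δ/Δ 3 in the latter, the same arrays on which Igkv9-120 (Δ/Δ 2) and Igha;Ighv1-33 (Δ/Δ 3) were high. No relation between these values was tested. Cd3e, the invariant chain of the T cell receptor complex, measured 5.52 ± 0.06 (SD, n = 3) and 5.82 ± 0.20 (SD, n = 4).

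Genes of class switching and somatic hypermutation showed 0 higher, 0 lower and 0 under an unadjusted limma p of 0.05 among the 4 measured, which were the repair genes Ung, Msh6, Exo1 and Polh. Over all named genes the shares were 1.53%, 0.577% and 6.54%. The median difference of the 4 was 0.03, and their means lay above the median level of all probe sets.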
